A study of Leucocroton havanensis with 4 samples.

Results

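The contigs described here are 146 transcripts of Leucocroton havanensis that were at least 3-fold higher in root with nickel than in root without nickel and that stayed within 2-fold between the shoot libraries. A contig is an assembled transcript sequence, here known only by its number in the authors' transcript set. The members were chosen by their measured values, from a set of 65936 contigs. Levels are read counts per 1000000 reads of the library (CPM), and 0.1 CPM was added to each level before a ratio was taken. The conditions were a mean of at least 1 CPM over the root libraries, a root ratio of 3 or more and a shoot ratio above 0.5 and below 2. The files do not pair the contig numbers with gene names, so no member can be assigned a function, and 4 members are named here by identifier.

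Leucocroton havanensis, a shrub of the spurge family that grows in Cuba, accumulates nickel. The libraries were root with nickel, root without nickel, shoot with nickel and shoot without nickel, each from in vitro plantlets harvested 6 weeks after germination. The growth protocol gives a Murashige and Skoog agar medium with 500 mg/L NiSO4, worded alike for every sample, and this dose is read here as that of the libraries labelled with nickel. No genotype, strain or number of plants per library is stated. Each group had 1 library, so no difference here has a replicate check, no test was possible, and the 95% intervals are for counting error alone. The label of the shoot library with nickel calls it a re-analysis of data from another series, so in shoot the effects of nickel and of the library's source cannot be told apart. Nor can those of organ and source where root is compared with shoot with nickel. In bulk tissue, fewer cells of a type and less RNA per cell cannot be told apart either.

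Nickel enters a plant through the root, where metal transporters of the epidermis and cortex take it up from the medium. In hyperaccumulators the metal is then loaded into the xylem and carried to the shoot, where it is stored in leaf vacuoles, bound to small organic ligands. The root is the organ in direct contact with the metal, and a transcript that differs with nickel there need not do so in the shoot.

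The libraries held 55660570 reads for root with nickel, 59802565 for root without nickel, 98108920 for shoot with nickel and 84917997 for shoot without nickel. Where a fold was needed, a count of 0 was replaced by a floor of 3 reads in that library, which with nickel is 0.0539 CPM in root and 0.0306 CPM in shoot. Without nickel the floors were 0.0502 CPM in root and 0.0353 CPM in shoot. Of all contigs, 28642 had a mean root level of at least 1 CPM, and 228 of these (0.796%) were 3-fold or more higher with nickel in root. In shoot, 28 of the 228 had a ratio of 2 or more and 54 had a ratio of 0.5 or less, which left the 146. The 24587 contigs that met the level and shoot conditions, whatever their root ratio, serve as the background below, and 0.594% of them are members. With the direction in root reversed, 96 contigs met the conditions, which is 0.390% of the same background.

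The members were mostly of low abundance. In root with nickel they lay between 1.58 and 135 CPM with a median of 3.99 CPM. In root without nickel they lay between 0 and 36.7 CPM with a median of 0.819 CPM. Their mean root level had a median of 2.31 CPM, against 10.2 CPM over the background, and 57 members (39.0%) had a mean root level under 2 CPM, against 15.2% of the background. The 96 contigs lower with nickel had a median mean root level of 2.51 CPM, and 43 of them lay under 2 CPM. Low abundance was thus not particular to the members. A mean root level of 5 CPM or more was reached by 34 members, 10 CPM by 18 and 20 CPM by 8. Together the members took 0.124% of the reads in root with nickel and 0.0285% in root without nickel.

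**Figure D1:**
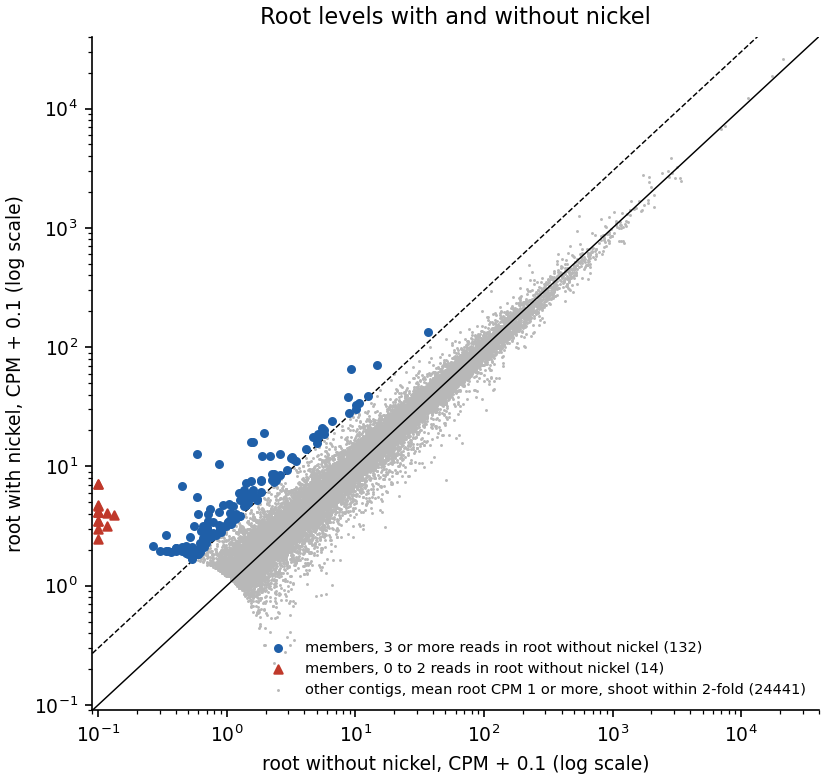
Level of each contig in root with nickel (vertical) against root without nickel (horizontal), both as CPM + 0.1 on log scales. Blue points are 132 members with 3 or more reads in root without nickel, red triangles the 14 members with 0 to 2 reads there, and grey points the other 24441 contigs of mean root level 1 CPM or more whose shoot ratio lay within 2-fold; the solid line marks equal levels and the dashed line the 3-fold limit.

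The size of the root ratio chose the members, and it is given as a description. The median ratio was 3.79, and 82 of the 146 members lay between 3 and 4. A further 43 lay between 4 and 8, 6 between 8 and 16, and 15 above 16. Intervals are those of the ratio of the scaled counts, without the 0.1 CPM. The exact 95% lower limit was above 1.5 for all 146 members and 3 or more for 81, and its lowest value was 2.26. The members just inside the limit had ratios of 3.01 and 3.03, and the contigs just outside it had ratios of 2.992 and 2.994. Just inside stood a member with 207 reads in root with nickel and 70 in root without nickel, and just outside stood a contig with 117 reads in root with nickel and 38 in root without nickel. At the shoot limits the nearest ratios inside were 1.92 and 0.506, and the nearest outside were 2.04 and 0.498. At the level limit the nearest contigs had mean root levels of 1.01 CPM inside and 0.991 CPM outside.

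Scaling of the libraries moved the number of members and the balance of directions. With library sizes scaled by TMM (trimmed mean of M-values, which aims to equalise the bulk of contigs), 94 contigs met the rule and 93 of them were among the 146. The number lower with nickel was then 138, so that the higher contigs were 40.5% of both directions together, against 60.3% with total counts. The median log2 root ratio of the background was 0.03 with total counts and -0.12 with TMM, so TMM did not centre the background in root. No excess of higher over lower contigs is therefore drawn from these counts.

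The most abundant member was Lhav_v2_contig_13631. It had 7506 reads (135 CPM) in root with nickel and 2196 reads (36.7 CPM) in root without nickel. In shoot it had 9 reads with nickel (0.0917 CPM) and none without nickel. The contig was thus read almost wholly in root, in both root libraries, and it was 3.67-fold higher with nickel there (95% exact interval 3.50 to 3.85). Without nickel it was at least 1039-fold higher in root than in shoot, with the shoot set at the floor of 3 reads. With counting error, the exact 95% lower limit of this ratio was 845. Its shoot ratio by the rule was 1.92, the highest of any member, and lay inside the window through the 0.1 CPM added. Against the floor of 3 reads it was at least 2.60-fold higher with nickel in shoot, on those 9 reads (exact 95% lower limit 1.71). It was therefore not shown to be steady there. It made up 10.8% of the summed member level in root with nickel and 12.9% in root without nickel.

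The next members in the order of mean root level were expressed in shoot as well. The member in second place stood at 70.2 CPM in root with nickel and 14.5 CPM in root without nickel, with 12.9 CPM in shoot with nickel and 21.9 CPM in shoot without nickel. The member in the third place stood at 66.0 CPM in root with nickel and 9.10 CPM in root without nickel, with 6.46 CPM in shoot with nickel and 9.14 CPM in shoot without nickel. Without nickel these members were about as abundant in root as in shoot or below it, and with nickel the root was the higher organ. The root ratio was 4.81 for the first of them (95% exact interval 4.50 to 5.22) and 7.18 for the other (6.63 to 7.95). The value of 7.18 was the largest among the 8 members of mean root level 20 CPM or more, whose lowest ratio was 3.03.

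Other members of this abundance had few or no reads in shoot. The member in the fifth place had 38.0 CPM in root with nickel and 8.58 CPM in root without nickel, and in shoot 0.214 CPM with nickel and 0.271 CPM without nickel. The member in the ninth place had 28.0 CPM in root with nickel and 8.76 CPM in root without nickel, and 6 and 8 reads in shoot with and without nickel. The member in the tenth place had 1322 reads (23.8 CPM) in root with nickel and 388 reads (6.49 CPM) in root without nickel, and no read in shoot. The abundant members thus ranged from contigs found in both organs at like levels without nickel to contigs not detected in shoot. Among the 18 members of mean root level 10 CPM or more, root ratios ran from 3.03 to 9.79, and the lowest exact 95% lower limit was 2.78. The highest of these ratios belonged to a member with 1060 reads in root with nickel, 111 in root without nickel and no shoot read.

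**Figure D2:**
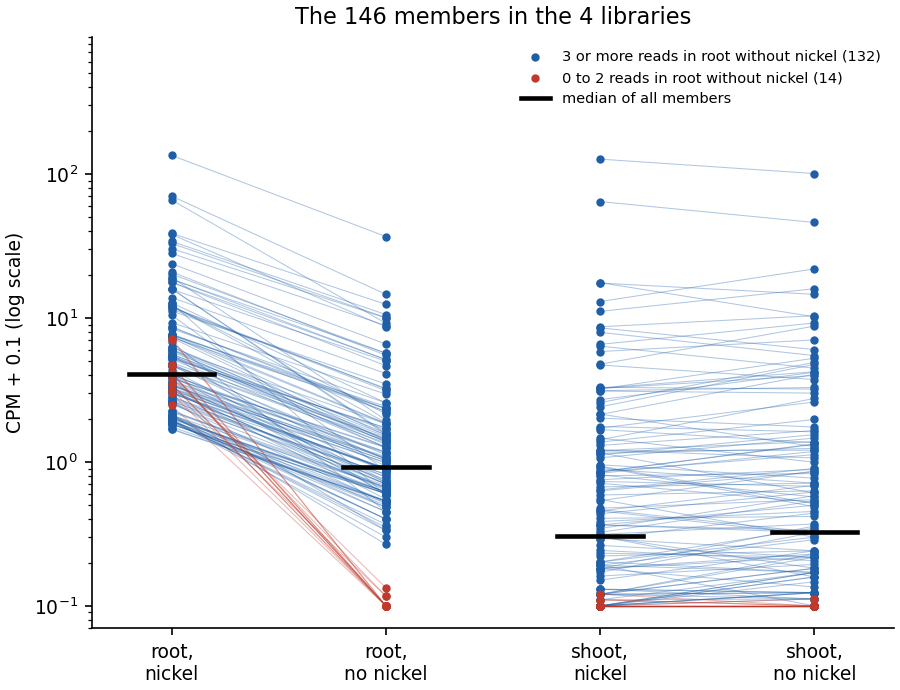
Level of each of the 146 members (CPM + 0.1, log scale) in root with nickel, root without nickel, shoot with nickel and shoot without nickel, with lines joining a contig's values within an organ and black bars at the medians. The members are higher with nickel in root by the rule that chose them, whereas the shoot values range from 0 to 127 CPM with nickel and from 0 to 101 CPM without nickel; red marks the 14 members with 0 to 2 reads in root without nickel.

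A group within the members was nearly absent from root without nickel. In that library 11 members had no read, against 0.0447% of the background (the same 11 contigs), 2 had 1 read and 1 had 2 reads. The same 14 members had 132 to 394 reads in root with nickel, with a median of 222, and at most 2 reads in either shoot library. Of the 14, 8 had no read in any library other than root with nickel, so that each of these 8 rests on a single library. The 11 members without a read were at least 47.3-fold to at least 141-fold higher with nickel against the floor of 3 reads. Their ratios by the rule ran lower, as 0.1 CPM is added, and for all 14 lay between 24.7 and 71.8. Among the other 132 members the highest ratios were 21.7 and 15.1, and the median was 3.68.

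Lhav_v2_contig_64160 had the highest lower limit of the root ratio among members with 100 or more root reads. It had 394 reads (7.08 CPM) in root with nickel and none in root without nickel, nor in either shoot library. It was at least 141-fold higher with nickel against the floor, with an exact 95% lower limit of 114 on the ratio of the counts. The member with the highest ratio outside the group of 14 had 700 reads (12.6 CPM) in root with nickel, 29 reads (0.485 CPM) in root without nickel and 0 reads in shoot. Its ratio by the rule was 21.7 (95% exact interval of the ratio of counts 17.9 to 39.0).

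The opposite pattern was not found in the transcript set. Of the 28642 contigs of mean root level 1 CPM or more, 15 had 0 to 2 reads in root without nickel and 0 had so few in root with nickel. Among all 65936 contigs, 117 had at least 10 reads in root with nickel and none elsewhere, and 216 had at least 10 reads in shoot with nickel and none elsewhere. The corresponding number was 0 for root without nickel and 0 for shoot without nickel. The part of this imbalance between the libraries with and without nickel in the 14 members was not tested. How the transcript set was assembled, and from which libraries, was not given in the sources used here. If libraries without nickel did not enter the assembly, contigs read in them alone would be missing from the set. The lack of the opposite pattern is therefore not read as a difference between the conditions.

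In shoot the members spanned 0 to 127 CPM with nickel, with a median of 0.204 CPM, and 0 to 101 CPM without nickel, with a median of 0.224 CPM. Steadiness in shoot was measured for only some of them. The exact 95% interval of the shoot ratio lay within 0.5 to 2 for 42 members and reached past a limit for 104. No read was counted in either shoot library for 28 members (19.2%), against 1.03% of the background. Of the 96 contigs lower with nickel in root, 14 (14.6%) had no shoot read, so this was not particular to the members. The 28 members met the shoot condition at a ratio of exactly 1 through the 0.1 CPM added. Of the others, 46 members had a shoot ratio above 1 and 72 had one below 1. The interval lay wholly above 1 for 18 members and wholly below 1 for 36. The background had a median log2 shoot ratio of 0.12 with total counts and -0.12 with TMM, so this balance also depends on the scaling.

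The share of contigs that are members was higher in contigs of low shoot level. It was 7.30% (60 of 822) at a mean shoot level under 0.1 CPM and 1.98% (47 of 2379) at 0.1 to 1 CPM. It was 0.333% (33 of 9922) at 1 to 10 CPM and 0.0523% (6 of 11464) at 10 CPM or more. The contigs 3-fold or more lower with nickel had shares of 3.41%, 0.967%, 0.292% and 0.140% in the same order of classes, so a fall with shoot level was not particular to the members. Contigs of low shoot level were also lower in root, but the order held at like root level. At a mean root level of 2 to 5 CPM, for example, 10.8% (28 of 259) were members at a shoot level under 0.1 CPM, 2.13% at 0.1 to 1 CPM, 0.354% at 1 to 10 CPM and 0 of 411 at 10 CPM or more. At a mean root level of 10 CPM or more, the shares were 3.60% (4 of 111), 1.72%, 0.382% and 0.0299%. The exception was the class of 1 to 2 CPM in root, where 2 of 109 contigs (1.83%) were members at a shoot level of 10 CPM or more, above the 0.352% at 1 to 10 CPM. The shoot condition does not act alike over the shoot classes, since the 0.1 CPM added draws ratios of few shoot reads towards 1. It kept 146 of the 228 contigs 3-fold or more higher with nickel in root, and 24587 of the 28642 contigs of any root ratio. How much this adds to the fall with shoot level was not tested.

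**Figure D3:**
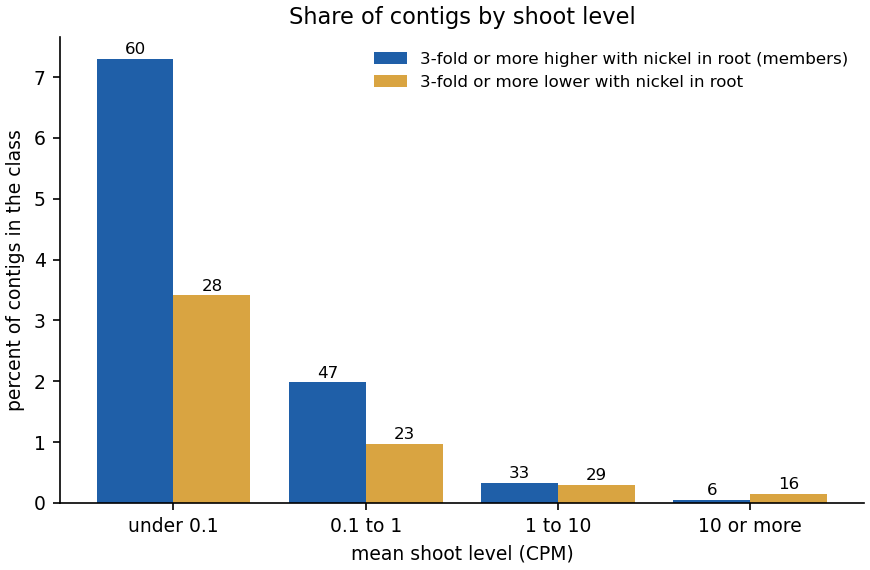
Percent of the background contigs in each class of mean shoot level (CPM, horizontal) that were 3-fold or more higher with nickel in root (members, blue) or 3-fold or more lower (ochre), with the number of contigs above each bar. The members fall from 7.30% in the lowest shoot class to 0.0523% in the highest, and the lower contigs from 3.41% to 0.140%.

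The fall of the share with shoot level was seen under each scaling, whereas the balance of directions within a class was not. With TMM the members' shares were 6.40%, 1.08%, 0.185% and 0.0258% from the lowest to the highest shoot class, against 5.09%, 1.53%, 0.452% and 0.181% for contigs lower with nickel. In the lowest class the higher contigs outnumbered the lower ones with total counts (60 and 28), with TMM (49 and 39) and with DESeq2 size factors (50 and 38). Without the 14 members nearly absent from root without nickel, all of which lay in this class, 46 members remained with total counts (5.60% of the class), against 28 lower contigs. With TMM 35 remained against 39 lower, and with DESeq2 size factors 36 against 38, so the balance in this class turned with the scaling too. This count was added after the data were seen.

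The comparison of root with shoot was not part of the rule, but it uses the same libraries. With nickel, it sets root against the shoot library labelled a re-analysis, so organ and library source cannot be told apart there. A member is by choice high in root with nickel and low in root without nickel, so its root to shoot ratio is set high with nickel and low without it. A contig was called higher or lower in root when the ratio was at least 4-fold and its exact 95% interval lay beyond 1.5-fold. With nickel, 111 of the 146 members were higher in root (76.0%), against 12.0% of the background, and 3 were lower (2.05%), against 4.30%. Without nickel, 46 were higher in root (31.5%), against 12.8% of the background, and 11 were lower (7.53%), against 4.52%. Of the 96 contigs lower with nickel in root, 35 (36.5%) were called higher in root with nickel and 55 (57.3%) without nickel. Called lower in root were 22 of the 96 (22.9%) with nickel and 5 (5.21%) without nickel. Calls of higher in root above the background share were thus not particular to the members. The median log2 ratio of root to shoot was 3.62 with nickel and 0.94 without nickel in the members, compared with 0.34 and 0.41 in the background.

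Taking the mean of both libraries of each organ, 130 of the 146 members were higher in root, against 63.9% of the background, and the remaining 16 were higher in shoot. The median log2 ratio of mean root to mean shoot level was 2.76 in the members and 0.37 in the background. It was 2.08 in the 96 contigs lower with nickel in root, which thus also lay towards root. The members were not restricted to root in their expression, since 16 of them were more abundant in shoot and 6 had a mean shoot level of 10 CPM or more. Their small shoot ratios are a condition of the rule and no result.

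The members fell into 5 patterns of organ calls. In 46 members root was higher in both conditions, and in 65 it was called higher with nickel but not without it. The 65 include the 14 members of 0 to 2 reads in root without nickel, too few there for a call. Members called higher in root without nickel numbered 55 with 0.01 CPM added and 7 with 1 CPM added. A missing call is thus no measure of like levels in both organs. Another 24 members were called in neither condition, 8 were lower in root without nickel and not called with nickel, and 3 were lower in root in both conditions. The 46 members that were already higher in root without nickel had a median of 5.37 CPM in root with nickel and 1.26 CPM in root without nickel. In shoot none of them exceeded 0.571 CPM with nickel or 0.612 CPM without nickel. For the next numbers, every shoot count under 3 reads was set at the floor, not only a missing one. Root was then 100-fold or more above shoot in 43 members with nickel, 29 of which had no read in shoot with nickel. Without nickel 3 members reached this size, and all 3 had no read in shoot without nickel. From CPM + 0.1, which lowers such ratios, the numbers were 9 with nickel and 1 without nickel.

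**Figure D4:**
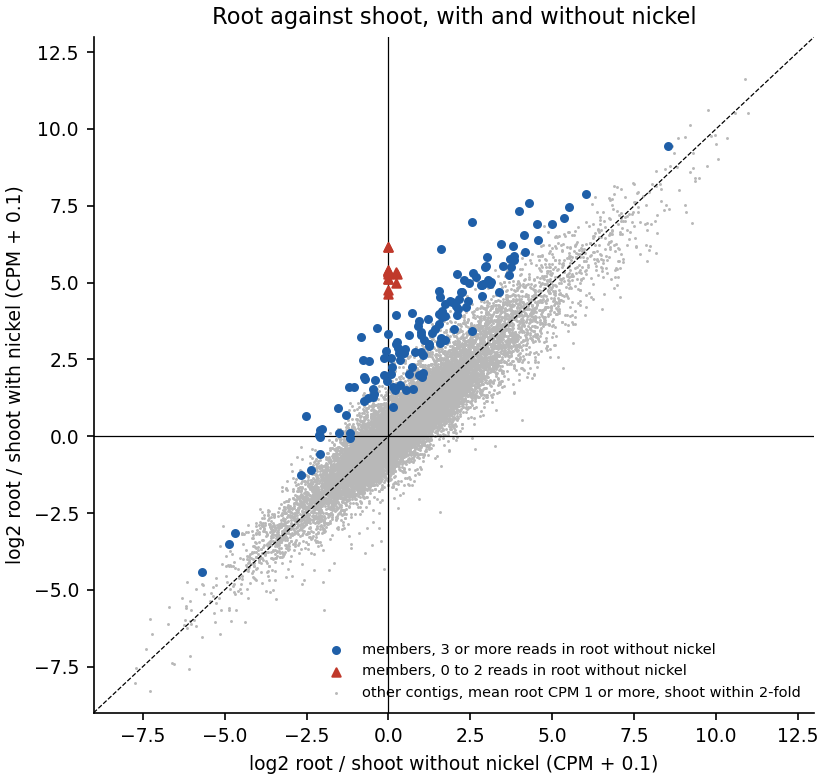
Log2 ratio of root to shoot with nickel (vertical) against that without nickel (horizontal), from CPM + 0.1, for the members (blue points, and red triangles for the 14 with 0 to 2 reads in root without nickel) and the rest of the background (grey). The members lie above the dashed line of equal ratios because of the rule, and most lie above 0 with nickel (138 of 146) whereas 100 of 146 do so without nickel.

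The 11 members that were lower in root than in shoot without nickel were contigs of low root and higher shoot level. In root they stood between 1.87 and 11.1 CPM with nickel and between 0.301 and 3.38 CPM without nickel. In shoot they stood between 1.66 and 127 CPM with nickel and between 1.52 and 101 CPM without nickel. The 3 of them that stayed lower in root with nickel had the highest shoot levels with nickel of the 11.

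Lhav_v2_contig_6651 had the highest shoot level of any member. It had 617 reads (11.1 CPM) in root with nickel and 202 reads (3.38 CPM) in root without nickel. In shoot it had 12453 reads (127 CPM) with nickel and 8558 reads (101 CPM) without nickel. Its level in root was a small part of that in shoot in both conditions, 11.5-fold lower with nickel (95% exact interval 10.6 to 12.4) and 29.8-fold lower without nickel (25.9 to 34.5). The ratio with nickel over without was 3.28 in root (2.80 to 3.87) and 1.26 in shoot (1.23 to 1.29). Lhav_v2_contig_8120 had the same order of levels. It had 164 reads (2.95 CPM) in root with nickel and 48 reads (0.803 CPM) in root without nickel. In shoot it had 6310 reads (64.3 CPM) with nickel and 3907 reads (46.0 CPM) without nickel. Without nickel it was 57.3-fold lower in root than in shoot (43.1 to 77.9), and with nickel 21.8-fold lower (18.7 to 25.6).

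Summed over the 146 members, the level was 1244 CPM in root with nickel and 285 CPM in root without nickel, a ratio of 4.36. In shoot the sum was 371 CPM with nickel and 348 CPM without nickel, a ratio of 1.07. The rule chose members by their root and shoot ratios, so both summed ratios are descriptions and no result. The 10 members of highest mean root level made up 39.9% of the sum in root with nickel and 44.4% in root without nickel. In shoot a single member, Lhav_v2_contig_6651, made up 34.2% of the sum with nickel and 28.9% without nickel. Without it the shoot sums were 245 CPM with nickel and 248 CPM without nickel, and the root ratio was 4.37.

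The members were unevenly placed in the numbering of the transcript set, which runs from 1 to 65936. Their median number was 42264.5, against 15421 in the background, and 38 of them were numbered above 63000. Among background contigs numbered above 63000, 11.0% (38 of 344) were members, against 0.445% (108 of 24243) of those numbered up to 63000. The contigs lower with nickel were also more frequent there, at 4.94% (17) against 0.326% (79). All 14 members nearly absent from root without nickel were numbered between 63872 and 64448. The limit of 63000 was chosen after the values were seen.

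The numbering followed the read level of the contigs, apart from the root levels near its end. The median contig numbered up to 10000 had 1402 reads in root with nickel, 1488 in root without nickel, 2889 in shoot with nickel and 2265 in shoot without nickel. Above 63000 the medians were 14, 9, 0 and 0 reads in the same order. Root medians were 8 reads with nickel and 4 without nickel from 62001 to 63000. From 64001 to 65000 they were 26 and 20 reads, whereas both shoot medians there were 0. Of the 38 members numbered above 63000, 37 had at most 16 reads in each shoot library and 20 had no shoot read. The place in the numbering is therefore not a feature independent of the low shoot level. Directly neighbouring numbers occurred in 3 pairs of members. Contig sequences were not used here.

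**Figure D5:**
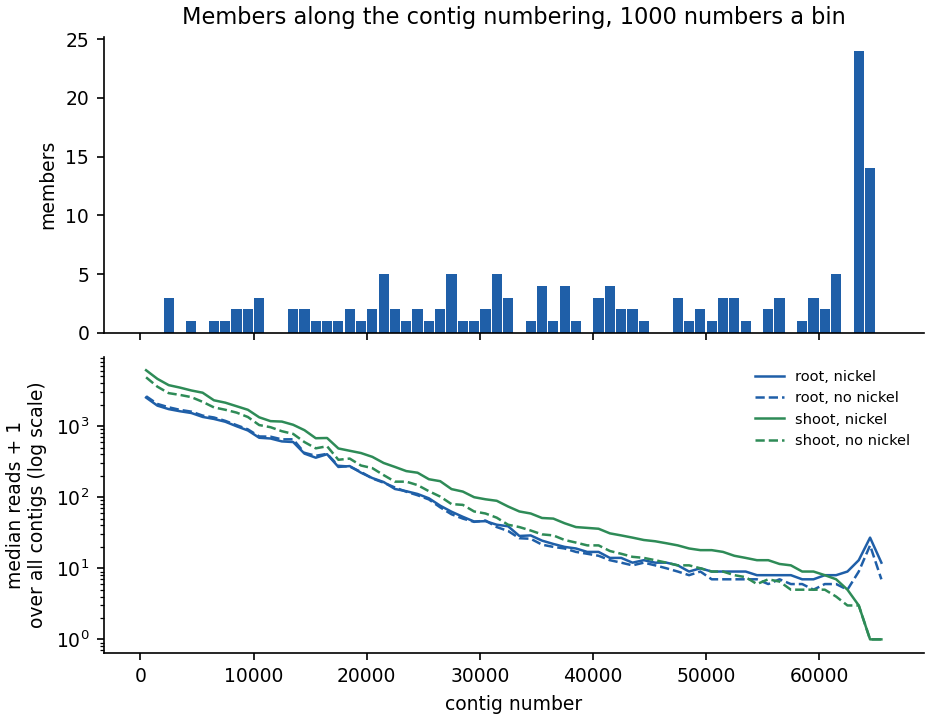
Number of members in each bin of 1000 contig numbers (upper panel) and the median reads + 1 of all contigs in the bin (lower panel, log scale) in root with nickel, root without nickel, shoot with nickel and shoot without nickel. The bins from 63001 and 64001 hold 24 and 14 members, and the shoot medians reach 0 reads in the last bins.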

How the data were processed

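The deposited files give whole-number read counts per contig, 1 file per library, which the authors left without normalization, per the file headers. Per the labels' protocols, polyA RNA was extracted with TRIzol LS, treated with DNase and made into stranded TruSeq libraries. The aligner, the counting program, the treatment of near-identical contigs and the assembly were not given in the sources used here. CPM were computed from the column totals. Ratios used CPM + 0.1, and exact 95% intervals are conditional binomial (Clopper-Pearson, scipy 1.17.1), for counting error only. If both reads of a pair were counted, the intervals are too narrow. TMM factors (edgeR 4.0.16) and DESeq2 1.42.0 size factors, from contigs that reached 10 reads in any library, were used for alternative scalings only, in R 4.3.3. No test was run, as each group had 1 library. The calculation of the interval and the rule was checked on simulated counts that held counting error alone. That check bears on no variation between plants or libraries. The named contigs were the member of highest mean root CPM, the member of highest lower limit with at least 100 root reads, and the 2 members whose root to shoot interval without nickel lay farthest below 1. The members and classes were chosen with earlier results of these data known. Gene lists on metal transport, ligands, iron deficiency, root and shoot markers and stress needed gene names and were not formed, so the organ labels could not be checked against marker genes.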

Additional observations from a re-analysis of the deposited data

Results flagged for a closer look

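The summed level of the members had opposite directions between the organs in the 2 nickel conditions. The log2 ratio of root to shoot was 1.74 with nickel and -0.29 without nickel, and the difference was not tested. With total counts, the log2 ratio without Lhav_v2_contig_6651 was 2.33 with nickel and 0.19 without nickel. Without that contig it was 2.23 with nickel and -0.021 without nickel by TMM, and 2.28 with nickel and -0.086 without nickel by DESeq2 size factors, so the direction without nickel did not turn under these scalings. Of the 146 members, 27 had a root to shoot ratio above 1 with nickel and below 1 without nickel, and 0 passed the 4-fold calls in both directions. The rule that chose the members raises the ratio with nickel and lowers the ratio without it. With nickel, organ and the source of the shoot library cannot be told apart either.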

How the results depend on the processing

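Of 107 recalculations, 61 moved a count by less than 1.5 times or a value by less than its binomial 95% limits. Some of the 61 could not move. Summed levels take no added CPM, and Lhav_v2_contig_64160 had no read in root or shoot without nickel. The member count of 146 became 94 with TMM, 93 with DESeq2 size factors (90 of them among the 146), 61 with 1 CPM added, 765 with no minimum of mean root CPM, and 89, 34 and 18 at minima of 2, 5 and 10 CPM. It was 64 at a root ratio of 4 and 562 at 2, 228 with no condition on shoot, and 81 with a lower limit of 3. Added after the data were seen, it was 86 without members of mean shoot level under 0.1 CPM. With halved counts, all 146 kept a lower limit of 1.5 or more, which the rule's conditions on level and ratio set in advance. The higher contigs were 60.3% of both directions with total counts, 40.5% with TMM, 40.3% with DESeq2 size factors and 78.0% with no minimum; at 10 CPM, 18 contigs were higher and 18 lower.

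With 1 CPM added, the median log2 root to shoot ratio of the members was 1.98 with nickel and 0.32 without nickel. Members called higher in root then numbered 72 with nickel and 7 without nickel, and 3 were lower without nickel. At mean root CPM 5 or more these numbers were 29, 13 and 1, as fewer members entered. The summed root ratio of 4.36 was 3.93 with either scaling (TMM or DESeq2), 4.12 at mean root CPM 5 or more and 4.15 without the 14 members of 0 to 2 reads. The log2 summed ratio of root to shoot with nickel was 1.64 with TMM, 1.69 with DESeq2 size factors, 1.95 at mean root CPM 5 or more, 1.67 without the 14 members and 2.33 without the member of highest shoot CPM. Without nickel it was -0.50, -0.56 and -0.11 for the first 3 of these settings, and with total counts it turned to 0.19 without the member of highest shoot CPM. The 4 named contigs stayed higher with nickel in root, but Lhav_v2_contig_6651 left the rule with a root ratio of 2.91 under TMM or DESeq2 and 2.76 with 1 CPM added. With 1 CPM added, Lhav_v2_contig_8120 left it too (2.19), and Lhav_v2_contig_64160 stood at 8.08 (71.8 as reported). No paired analysis was possible because each group had 1 library. Leaving out a replicate was not run for the same reason. At this depth a count of 0 allows up to 3 reads, and a shoot ratio near that floor was not detectable.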
